A study of Arabidopsis thaliana with 12 samples.

Results

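The comparison described here sets seedlings of the cellulose synthase mutant ixr1-1 against wild-type Col-0 seedlings of Arabidopsis thaliana when both had spent 1 h in 600 nM isoxaben. Its members are the 3 ixr1-1 isoxaben libraries and the 3 Col-0 isoxaben libraries, 6 of the 12 libraries in the series, taken by their labels and described across all genes. The other 6 libraries are 3 of each genotype given the solvent DMSO alone, and they serve here to show whether a genotype difference was also present without the drug. All seedlings were 6 days old, had grown in shaken liquid medium in days of 16 h light and 8 h dark. By the labels, each flask was divided between a drug and a solvent flask, so the libraries of the 2 media are not from separately grown plants. ixr1-1 is a single mutant allele, and no second allele or complemented line is among the samples. The labels give the libraries numbers and do not state whether those of 1 group were grown apart. The p-values therefore speak of library-to-library spread alone, and some of it may be technical.

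Cellulose is made at the plasma membrane by rosette complexes of CESA subunits, and the primary wall complex contains CESA1, CESA3 and CESA6-type proteins. Isoxaben is a herbicide that clears these complexes from the membrane within minutes to hours and halts cellulose synthesis. The ixr1-1 allele is a missense change in CESA3 that makes plants resistant to it. Loss of wall integrity in wild-type seedlings is known to switch on stress, defence and hormone genes in part through the receptor kinase THESEUS1.

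The 6 libraries held 10490825, 17963734 and 14448316 counts in Col-0 isoxaben and 10838409, 13648295 and 14558491 counts in ixr1-1 isoxaben. The files list 33602 genes, and 20379 of them had enough counts to be tested, in 1 model over all 12 libraries. The first principal component, with 49.1% of the variance, separated the genotypes. Levels (CPM) are counts scaled to library size multiplied by the TMM scaling factor of the library, not to library size alone. A fold change is log2 of ixr1-1 over Col-0, so a negative value means lower in the mutant, and a gene is called when its p-value, adjusted over all 20379 genes, is under 0.05.

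With isoxaben present, 1410 genes were higher and 1192 lower in ixr1-1 than in Col-0, together 12.8% of all genes tested (6.92% higher, 5.85% lower). Most differences were small: 332 of the higher (1.63% of genes tested) and 103 of the lower genes (0.505%) differed at least 2-fold. The median size over called genes was 0.45 on the log2 scale, and the median standard error over all genes tested was 0.11. The 3 and 3 libraries of the called genes did not overlap in 2551 of the 2602, against 6241 of all 20379 genes (30.6%). The calls lay on all 5 nuclear chromosomes at shares between 12.5% and 13.1%, and in 104 windows of 1 Mb the share ranged from 6.14% to 22.0%. In the window that holds CESA3 it was 8.86%. In RNA of whole samples, fewer cells of a type and less RNA per cell cannot be told apart. With 1 library left out, and so fewer to test, the counts were often lower. Without Col-0 isoxaben replicate 3 they were 810 higher and 760 lower, without ixr1-1 isoxaben replicate 2 they were 878 and 671, and the lower genes numbered 719 without Col-0 isoxaben replicate 2 and 733 without ixr1-1 isoxaben replicate 3. Scaling by library size alone gave 2280 higher and 721 lower genes, so that 76.0% of the calls were higher in place of 54.2%, with a shift of the median of all genes of 0.07.

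Much of this difference was there without the drug. The DMSO libraries of the same genotypes, which share no library with the isoxaben comparison, gave 3509 called genes (17.2% of those tested, 9.79% higher and 7.42% lower). Of these, 1851 were called in isoxaben with the same sign, which is 71.1% of the isoxaben calls and 52.8% of the DMSO calls. Of them 1006 were higher and 845 lower in ixr1-1. Another 735 genes were called in isoxaben only, of which 638 had the same sign in DMSO, and missing the threshold there does not show that they were equal there. A test of the difference between the genotype effects, the genotype by treatment interaction, called 64 genes (0.314% of those tested). Each flask of seedlings was divided between the drug and the solvent, but no label used here says which libraries came from the same flask, so this fit does not pair them. With libraries of the same genotype and number taken as 1 flask, the interaction called 180 genes. Of the 64 genes of the fit without pairing, 36 were also called in isoxaben, 24 of them lower in ixr1-1 and 12 higher. Of the 36, 13 kept the interaction call without any 1 library. Without 1 library the interaction gave between 22 genes (ixr1-1 DMSO replicate 2 left out) and 113 (ixr1-1 isoxaben replicate 2 left out). It gave 28 without Col-0 DMSO replicate 3, 36 without Col-0 isoxaben replicate 2, 37 without ixr1-1 isoxaben replicate 1 and 29 without ixr1-1 isoxaben replicate 3.

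**Figure D1:**
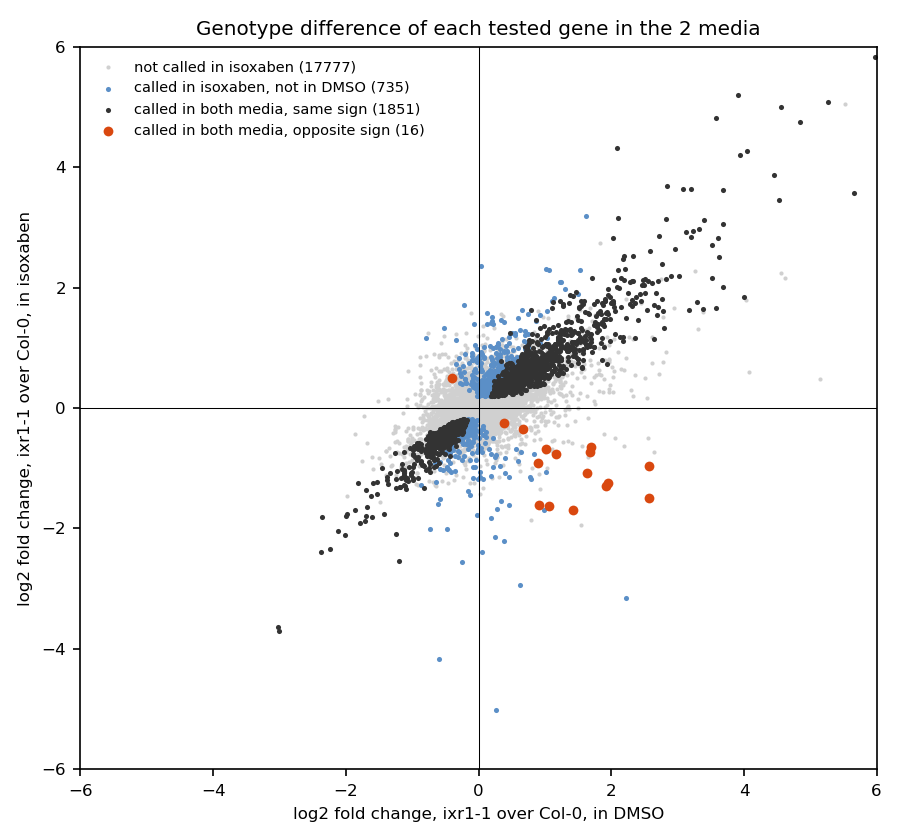
Genotype difference of each of the 20379 tested genes, as log2 fold change of ixr1-1 over Col-0, in DMSO (horizontal) and in isoxaben (vertical); 23 genes lie outside the axes. The 1851 genes called in both media with the same sign run along the rising diagonal, and 15 of the 16 genes with opposite signs lie at the lower right, higher in ixr1-1 in DMSO and lower in isoxaben.

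Exactly 16 genes were called in both media with opposite signs. All 16 also passed the interaction test, which takes the isoxaben difference minus the DMSO difference. Differences of opposite sign add up in that test, so passing it was largely set by the selection and is no separate support. Of the 16 genes, 15 were lower in ixr1-1 than in Col-0 in isoxaben and higher than in Col-0 in DMSO. They include ERF6 and ERF13, transcription factors of the ethylene response factor family that act in stress signalling; CZF1, a CCCH zinc finger protein of stress and elicitor responses; PROPEP3, the precursor of a danger peptide that alerts neighbouring cells to damage; the expansin-like protein EXLA3; and the cytochrome P450 CYP706A2. Their promoters are shown here for ERF13, ERF6 and PROPEP3, chosen after their values were seen as the transcription factors and the peptide gene of the set, because the W-box, the site of WRKY transcription factors, is the element usually looked for in stress response genes. Each run is the 250 bases before the RefSeq gene start on TAIR10.1, read in the direction of the gene, with every match to the W-box core TTGAC on either strand (GTCAA on the strand shown) in capitals, overlapping matches counted.
ERF13 (chr2:18494965-18495214, plus strand): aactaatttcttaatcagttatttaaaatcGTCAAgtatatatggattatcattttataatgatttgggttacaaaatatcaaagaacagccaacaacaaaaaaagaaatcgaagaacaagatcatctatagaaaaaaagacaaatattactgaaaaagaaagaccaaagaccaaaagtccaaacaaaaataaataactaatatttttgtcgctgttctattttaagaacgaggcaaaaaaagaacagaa
ERF6 (chr4:9754162-9754411, minus strand): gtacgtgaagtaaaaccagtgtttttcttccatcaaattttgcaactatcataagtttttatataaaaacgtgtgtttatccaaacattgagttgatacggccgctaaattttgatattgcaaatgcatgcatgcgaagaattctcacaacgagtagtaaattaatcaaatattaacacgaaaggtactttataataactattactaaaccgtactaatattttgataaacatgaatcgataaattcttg
PROPEP3 (chr5:25939312-25939561, plus strand): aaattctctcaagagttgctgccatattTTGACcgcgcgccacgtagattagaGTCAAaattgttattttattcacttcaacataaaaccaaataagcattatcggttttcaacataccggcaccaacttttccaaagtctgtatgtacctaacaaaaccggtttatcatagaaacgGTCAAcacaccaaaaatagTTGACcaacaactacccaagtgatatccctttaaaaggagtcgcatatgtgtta
PROPEP3 held 4 matches, ERF13 held 1 and ERF6 none in this window. Among the 15 genes, 14 had 250 bases before their start free of annotated exons, and 12 of those held at least 1 match (85.7%), beside 6409 of 13889 such windows of all tested genes (46.1%). These are matches of 5 letters and say nothing of binding.

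ERF13 stood at 6.57, 6.08 and 5.02 CPM in Col-0 isoxaben and at 2.45, 2.41 and 2.31 CPM in ixr1-1 isoxaben. The groups did not overlap, with a log2 fold change of -1.29 ± 0.20 SE, adjusted p = 3.27e-04, whereas in DMSO the difference was 1.93 ± 0.29 SE, adjusted p = 1.21e-04. The Col-0 DMSO libraries averaged 0.594 CPM and the ixr1-1 DMSO libraries 2.23 CPM, so the 2 ixr1-1 groups lay between the 2 Col-0 groups. The interaction was -3.22 ± 0.35 SE, adjusted p = 1.54e-04. ERF6 was also highest in Col-0 isoxaben and lowest in Col-0 DMSO, with 9.85, 9.97 and 8.51 CPM in Col-0 isoxaben, 5.80, 6.02 and 4.83 CPM in ixr1-1 isoxaben, and means of 2.89 and 6.32 CPM in Col-0 and ixr1-1 DMSO. Its genotype difference was -0.77 ± 0.15 SE, adjusted p = 0.0022 in isoxaben and 1.16 ± 0.17 SE, adjusted p = 1.03e-04 in DMSO.

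PROPEP3 was at 4.83, 5.04 and 4.53 CPM in Col-0 isoxaben and 1.63, 2.41 and 1.98 CPM in ixr1-1 isoxaben, again without overlap (-1.24 ± 0.29 SE, adjusted p = 0.0095). In DMSO it averaged 0.985 CPM in Col-0, and its ixr1-1 libraries were spread over 2.102, 3.10 and 6.23 CPM. The interaction was -3.20 ± 0.44 SE, adjusted p = 0.0019. EXLA3, of the expansin-like A group of wall proteins, was at 6.18, 6.19 and 6.62 CPM in Col-0 isoxaben against 1.45, 2.83 and 1.85 CPM in the mutant (-1.61 ± 0.22 SE, adjusted p = 1.03e-04), with DMSO means of 1.25 and 2.30 CPM. CYP706A2 was at 4.73, 6.53 and 5.86 CPM against 2.35, 4.18 and 2.31 CPM (-0.96 ± 0.24 SE, adjusted p = 0.015), and its DMSO means were 0.930 and 5.31 CPM. The CYP706A2 call in isoxaben was lost without Col-0 isoxaben replicate 2 (0.075), ixr1-1 isoxaben replicate 1 (0.052) or ixr1-1 isoxaben replicate 3 (0.076), where the value in brackets is the adjusted p. Reads of CYP706A2 may be shared with its neighbour CYP706A1, since 62.8% of its 50-base stretches occur in that gene.

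AT5G28610, a gene with no assigned role here, was at 4.25, 4.87 and 5.09 CPM in Col-0 isoxaben and 1.54, 1.63 and 1.26 CPM in ixr1-1 isoxaben (-1.69 ± 0.20 SE, adjusted p = 3.69e-05). AT5G18470, a lectin family gene, was at 13.4, 12.2 and 10.6 CPM against 5.89, 8.78 and 6.74 CPM (-0.74 ± 0.15 SE, adjusted p = 0.0036). AT3G28580, an ATPase family gene, was at 6.76, 6.99 and 6.76 CPM against 3.08, 3.68 and 4.03 CPM (-0.91 ± 0.17 SE, adjusted p = 0.0019). Each of these was higher in the mutant in DMSO, by 1.43, 1.68 and 0.90 on the log2 scale. AT1G13480, a gene with no assigned role here, was lower in the mutant in isoxaben (-1.63 ± 0.28 SE, adjusted p = 8.81e-04) and was higher in the mutant in DMSO (1.06 ± 0.34 SE, adjusted p = 0.038). The glutathione transferases GSTU11 and GSTU12, neighbours on chromosome 1, differed by -1.49 and -1.08 in isoxaben and by 2.57 and 1.63 in DMSO. GSTU11 had few counts, with means of 1.83 CPM in Col-0 isoxaben, 0.630 in ixr1-1 isoxaben, 0.115 in Col-0 DMSO and 0.694 in ixr1-1 DMSO. The isoxaben call of GSTU11 was lost without Col-0 isoxaben replicate 3 (0.063) or ixr1-1 isoxaben replicate 2 (0.088), and that of GSTU12 without Col-0 isoxaben replicate 2 (0.057), Col-0 isoxaben replicate 3 (0.063), ixr1-1 isoxaben replicate 1 (0.057) or ixr1-1 isoxaben replicate 3 (0.091).

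CZF1 was at 64.4, 53.1 and 52.3 CPM in Col-0 isoxaben and at 42.7, 45.6 and 43.7 CPM in ixr1-1 isoxaben (-0.36 ± 0.11 SE, adjusted p = 0.037). Its isoxaben call was lost without Col-0 isoxaben replicate 1 (0.13), Col-0 isoxaben replicate 2 (0.057), ixr1-1 isoxaben replicate 1 (0.096), ixr1-1 isoxaben replicate 2 (0.08) or ixr1-1 isoxaben replicate 3 (0.10), while its interaction (-1.02 ± 0.15 SE, adjusted p = 0.0059) held without any 1 library. The remaining genes of this set were the glycine-rich protein gene AT1G07135, the purine permease PUP14 and the acyltransferase family gene AT2G32020, with isoxaben differences of -0.64, -0.24 and -0.67. Leaving out 1 library raised their adjusted p to as much as 0.13 without ixr1-1 isoxaben replicate 3, 0.18 without ixr1-1 isoxaben replicate 3 and 0.11 without Col-0 isoxaben replicate 1, respectively. AT4G13620, an AP2/ERF family gene, was the only gene of the 16 in the other direction, at 11.01, 10.9 and 14.1 CPM in Col-0 isoxaben and 18.9, 16.4 and 16.1 CPM in ixr1-1 isoxaben (0.51 ± 0.12 SE, adjusted p = 0.0086) and lower in the mutant in DMSO (-0.40 ± 0.11 SE, adjusted p = 0.02). Its call was lost without Col-0 isoxaben replicate 2 (0.057).

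**Figure D2:**
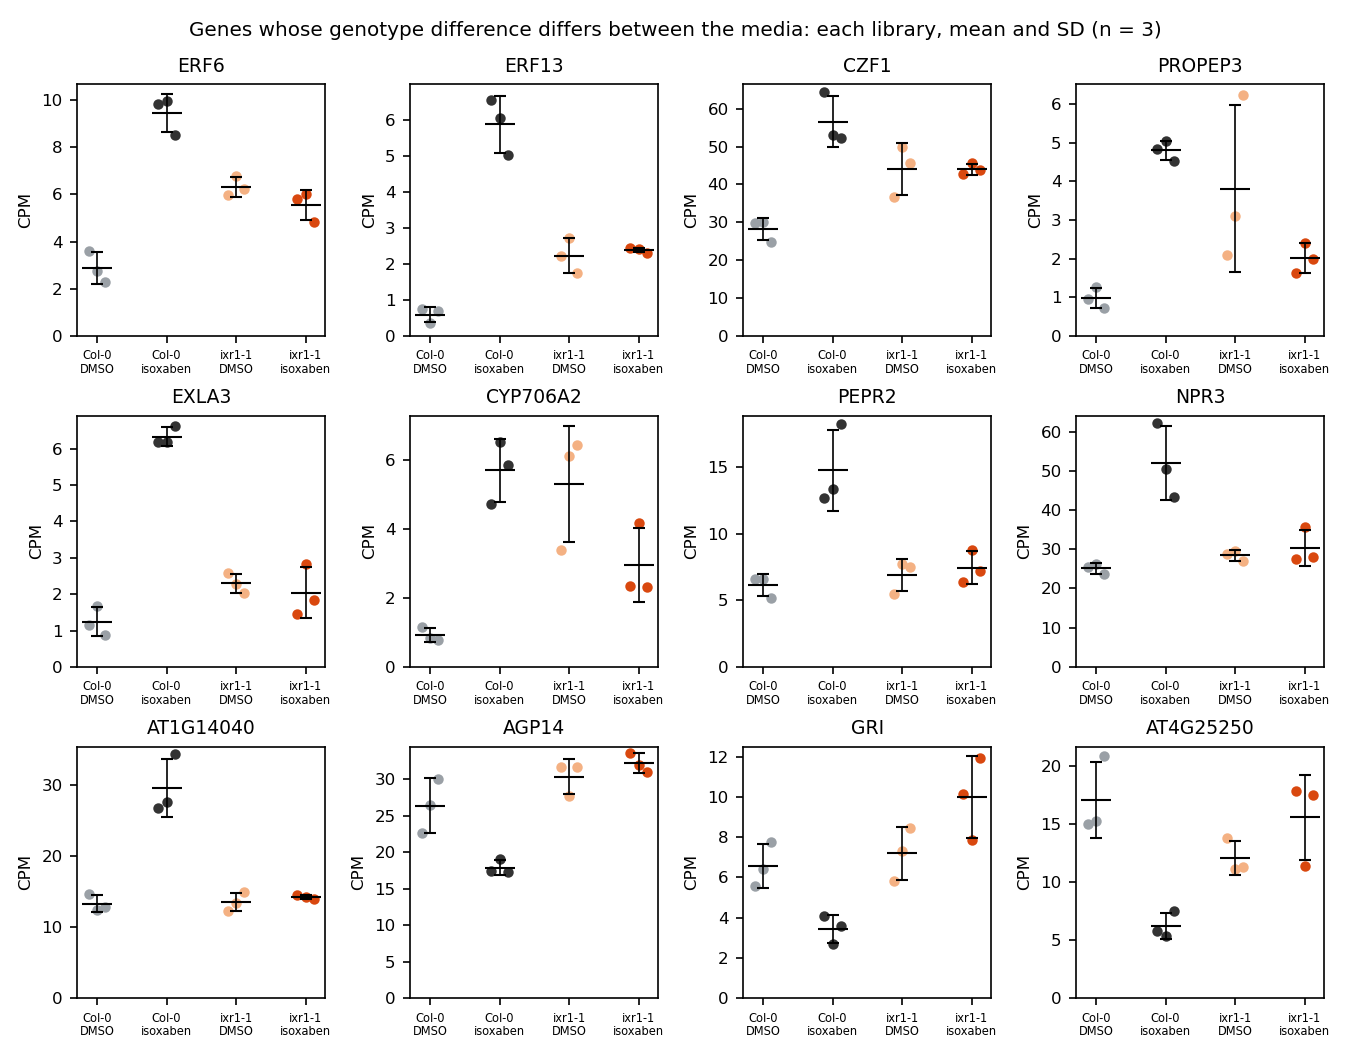
CPM of 12 genes with an interaction call in each of the 12 libraries, grouped by genotype and medium (points, libraries; bars, mean and SD, n = 3; each vertical axis starts at 0). For the first 9 genes the Col-0 isoxaben libraries lie above the ixr1-1 isoxaben libraries, and for AGP14, GRI and AT4G25250 they lie below them.

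A further 9 genes were lower in ixr1-1 in isoxaben with an interaction call and no call in DMSO. AT1G14040, whose protein carries the EXS domain found in phosphate exporters of the PHO1 family, was at 26.8, 27.6 and 34.4 CPM in Col-0 isoxaben and at 14.5, 14.3 and 14.01 CPM in ixr1-1 isoxaben (-1.06 ± 0.10 SE, adjusted p = 4.33e-06), with DMSO means of 13.3 and 13.5 CPM. Its interaction of -1.08 ± 0.15 SE, adjusted p = 0.0015 held without any 1 library. PEPR2, a receptor of the danger peptides, was at 12.7, 13.4 and 18.20003 CPM against 6.34, 8.78 and 7.20 CPM (-0.98 ± 0.16 SE, adjusted p = 6.48e-04). NPR3, a salicylate receptor that restrains defence, was at 62.2, 50.5 and 43.4 CPM against 27.4, 35.6 and 28.1 CPM (-0.76 ± 0.12 SE, adjusted p = 8.15e-04). GRX480, a glutaredoxin of salicylate and jasmonate crosstalk, was at 4.35, 4.13 and 2.37 CPM against 0.634, 0.638 and 0.991 CPM (-2.21 ± 0.31 SE, adjusted p = 1.60e-04). AT1G76640, a calcium-binding EF-hand protein, was at 3.67, 5.10 and 4.32 CPM against 0.634, 0.708 and 0.859 CPM (-2.56 ± 0.25 SE, adjusted p = 3.79e-06).

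In none of these 5 genes did the Col-0 and ixr1-1 isoxaben libraries overlap, as in 2551 of all 2602 isoxaben calls, so this is no separate support. The genotype differences of the 5 genes in DMSO were 0.21 for PEPR2, 0.18 for NPR3, 0.38 for GRX480, -0.25 for AT1G76640 and 0.03 for AT1G14040. The interaction adjusted p of PEPR2 was 0.039 and that of NPR3 0.029, and each call was lost without any 1 of 9 of the 12 libraries. The GRX480 call was lost without any 1 of 8 libraries and the AT1G76640 call without any 1 of 9. The highest adjusted p, all without ixr1-1 DMSO replicate 2, were 0.22 for PEPR2, 0.15 for NPR3, 0.27 for GRX480 and 0.35 for AT1G76640. The other 4 of the 9 were the lipase DLAH, the phosphatase PLL1 and 2 genes of unknown function, AT2G18210 and AT5G60350, with isoxaben differences of -0.88, -0.50, -1.68 and -3.16. AT5G60350 had few counts: it averaged 2.01 CPM in Col-0 isoxaben, 0.224 in ixr1-1 isoxaben, 0.0696 in Col-0 DMSO and 0.313 in ixr1-1 DMSO. On the strand opposite to PEPR2 lies AT1G17760. No source used here gives the counting strand, so reads of overlapping genes may not have been told apart. The same holds for AT5G18470, GRI, AT1G08590, RLP23, AT4G38560, WAK2, HERK1, PROPEP5 and OLEO1, which overlap exons of other genes on the opposite strand.

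Other genes were lower in the mutant in isoxaben and not called in DMSO, and their interaction did not pass the test in the fit that does not pair flasks. AT3G44870, a methyltransferase gene, was at 3.09, 7.91 and 9.07 CPM in Col-0 isoxaben and at 0.181, 0.779 and 0.132 CPM in ixr1-1 isoxaben (-4.18 ± 0.63 SE, adjusted p = 0.0019). Its exons overlap those of AT3G44880 on the same strand, so its counts are uncertain. The peroxidase gene AT1G14550 was at 9.27, 7.68 and 8.51 CPM against 1.90, 3.54 and 1.85 CPM (-1.78 ± 0.24 SE, adjusted p = 1.74e-04), with an interaction adjusted p of 0.069. In DMSO the differences were -0.60 and -0.02. The transcription factor genes WRKY38 and WRKY51 varied widely within Col-0 isoxaben, at 7.34, 2.81 and 0.976 CPM and 5.31, 2.58 and 1.32 CPM, and were at 0, 0.0708 and 0.198 CPM and 0.272, 0.354 and 0.463 CPM in ixr1-1 isoxaben. Their log2 fold changes were -5.02 ± 0.94 SE, adjusted p = 0.0059 and -2.95 ± 0.56 SE, adjusted p = 0.0033, and neither interaction passed the test, at adjusted p of 0.88 and 0.77.

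In the opposite direction, 10 genes were higher in ixr1-1 in isoxaben with an interaction call and no call in DMSO. AT1G05650, a pectin lyase-like protein, was at 8.11, 7.57 and 7.53 CPM in Col-0 isoxaben and 16.3, 14.2 and 13.1 CPM in ixr1-1 isoxaben (0.91 ± 0.12 SE, adjusted p = 1.01e-04), with DMSO means of 17.61 and 15.5 CPM. Its interaction (1.11 ± 0.16 SE, adjusted p = 0.002) held without any 1 library. AT4G25250, of the invertase and pectin methylesterase inhibitor family, was at 5.79, 5.33 and 7.46 CPM against 17.8, 11.3 and 17.4 CPM (1.32 ± 0.20 SE, adjusted p = 0.0011). The Col-0 isoxaben libraries were the lowest of the 4 groups for both genes. AGP14, an arabinogalactan peptide of root hairs, was at 17.4, 19.0 and 17.3 CPM against 33.7, 32.0 and 31.0 CPM (0.84 ± 0.10 SE, adjusted p = 2.64e-05). GRI, a secreted cell death regulator of the STIG1 family, was at 4.06, 2.69 and 3.56 CPM against 10.14, 7.86 and 11.96 CPM (1.57 ± 0.20 SE, adjusted p = 6.02e-05).

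The remaining 6 were the arabinogalactan protein AGP4, the homeodomain factor HB-3, the RNA-binding protein ARP1, the SAUR family gene AT4G31320, the peroxidase AT4G30170 and the receptor kinase gene AT1G08590, with log2 differences of 0.48, 0.76, 0.73, 0.92, 0.42 and 0.40. The AT1G08590 call was lost without Col-0 isoxaben replicate 2 (0.069). AT4G34150, a C2-domain lipid-binding protein, was higher in the mutant in both media, by 0.40 in isoxaben and 0.99 in DMSO. Among genes of root hair growth, 2 of 10 were higher in isoxaben and none lower, beside 6.92% and 5.85% of all genes tested. LRX2, a leucine-rich repeat extensin of the root hair wall, was at 21.4, 16.7 and 15.3 CPM against 33.0, 43.0 and 35.2 CPM (1.08 ± 0.12 SE, adjusted p = 4.51e-05). SHV2, a COBRA-like protein, was at 0.65. The SHV2 call was lost without Col-0 isoxaben replicate 2 (0.071), Col-0 isoxaben replicate 3 (0.051) or ixr1-1 isoxaben replicate 1 (0.064), which leaves 1 of 10.

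Cysteine-rich receptor-like kinases (CRKs) are membrane kinases whose genes respond to pathogens and oxidative stress. Of 37 tested members 22 were higher and none lower, beside 6.92% called higher among all genes tested. All 22 were also higher in the mutant in DMSO, beside 1006 of all 1410 genes called higher in isoxaben. The family median was 0.74, against 0.00 over all genes tested, and 36 of the 37 had positive values. CRK6 was at 0.483, 0.688 and 0.767 CPM in Col-0 isoxaben and 3.17, 5.10 and 5.75 CPM in ixr1-1 isoxaben (2.82 ± 0.29 SE, adjusted p = 7.60e-06). CRK14 was at 3.96, 2.81 and 2.44 CPM against 10.14, 15.7 and 12.1 CPM (2.09 ± 0.21 SE, adjusted p = 2.04e-05). CRK28 was at 17.8, 15.7 and 16.7 CPM against 26.2, 32.2 and 28.9 CPM (0.81 ± 0.10 SE, adjusted p = 3.40e-05). The groups did not overlap for any of these 3, as for 2551 of all 2602 isoxaben calls. CRK5 and CRK13 were higher by 1.44 and 1.61. CRK7 had 1 count in the 3 Col-0 isoxaben libraries together and 25 in the 3 mutant libraries, a ratio of 26.2 with a 95% exact counting interval of 4.28 to 1074. CRK6 shares 24.02% of its 50-base stretches with CRK8, so its reads may be partly shared. The 8 CRK genes not tested had too few counts.

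Toll-interleukin receptor (TIR) proteins, many of them intracellular immune receptors that detect pathogen effectors, had 28 of 102 tested members higher and 4 lower, beside 6.92% and 5.85% of all genes tested, with a median of 0.24. Of the 28, 26 were higher in DMSO too, beside 1006 of all 1410 genes called higher in isoxaben. Without Col-0 isoxaben replicate 3 the number higher was 18, and without ixr1-1 isoxaben replicate 2 it was 16. AT1G72900 was at 7.15, 8.08 and 9.20 CPM in Col-0 isoxaben and 17.57, 16.7 and 16.2 CPM in ixr1-1 isoxaben (1.03 ± 0.11 SE, adjusted p = 8.41e-06). AT1G63750 was at 11.11, 12.4 and 10.7 CPM against 21.5, 26.1 and 23.7 CPM (1.06 ± 0.12 SE, adjusted p = 1.43e-05). AT1G66090 was at 2.22, 2.29 and 2.09 CPM against 4.89, 8.93 and 7.07 CPM (1.67 ± 0.20 SE, adjusted p = 3.38e-05). The number lower was 2 without Col-0 DMSO replicate 2, Col-0 DMSO replicate 3 or ixr1-1 isoxaben replicate 1, and 1 without Col-0 isoxaben replicate 2, Col-0 isoxaben replicate 3 or ixr1-1 isoxaben replicate 3. EDS1, the hub through which TIR receptors signal, was higher by 0.43 and its partner SAG101 by 0.44. The EDS1 call was lost without Col-0 isoxaben replicate 2 (0.12), Col-0 isoxaben replicate 3 (0.13), ixr1-1 isoxaben replicate 1 (0.052) or ixr1-1 isoxaben replicate 2 (0.12), and the SAG101 call without Col-0 isoxaben replicate 3 (0.07).

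Some other receptor genes were higher too, and their families were not counted. RLP23 and AT1G51820 were chosen after their values were seen. RLP23, the receptor protein for a peptide of microbial necrosis proteins, was at 2.41, 1.204 and 0.907 CPM in Col-0 isoxaben and 5.98, 9.14 and 12.5 CPM in ixr1-1 isoxaben (2.72 ± 0.49 SE, adjusted p = 0.0066). RLP21, a receptor-like protein, was at 1.45, 0.573 and 1.05 CPM against 7.34, 14.6 and 13.5 CPM (3.63 ± 0.41 SE, adjusted p = 2.69e-04), and the leucine-rich repeat kinase gene AT1G51820 at 2.80, 3.73 and 2.37 CPM against 14.3, 24.7 and 29.1 CPM (2.92 ± 0.52 SE, adjusted p = 0.0086). All 3 were also higher in the mutant in DMSO, with log2 fold changes of 3.52, 3.68 and 3.13. AT4G38560, a phospholipase-like protein gene, was higher by 3.14.

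**Figure D3:**
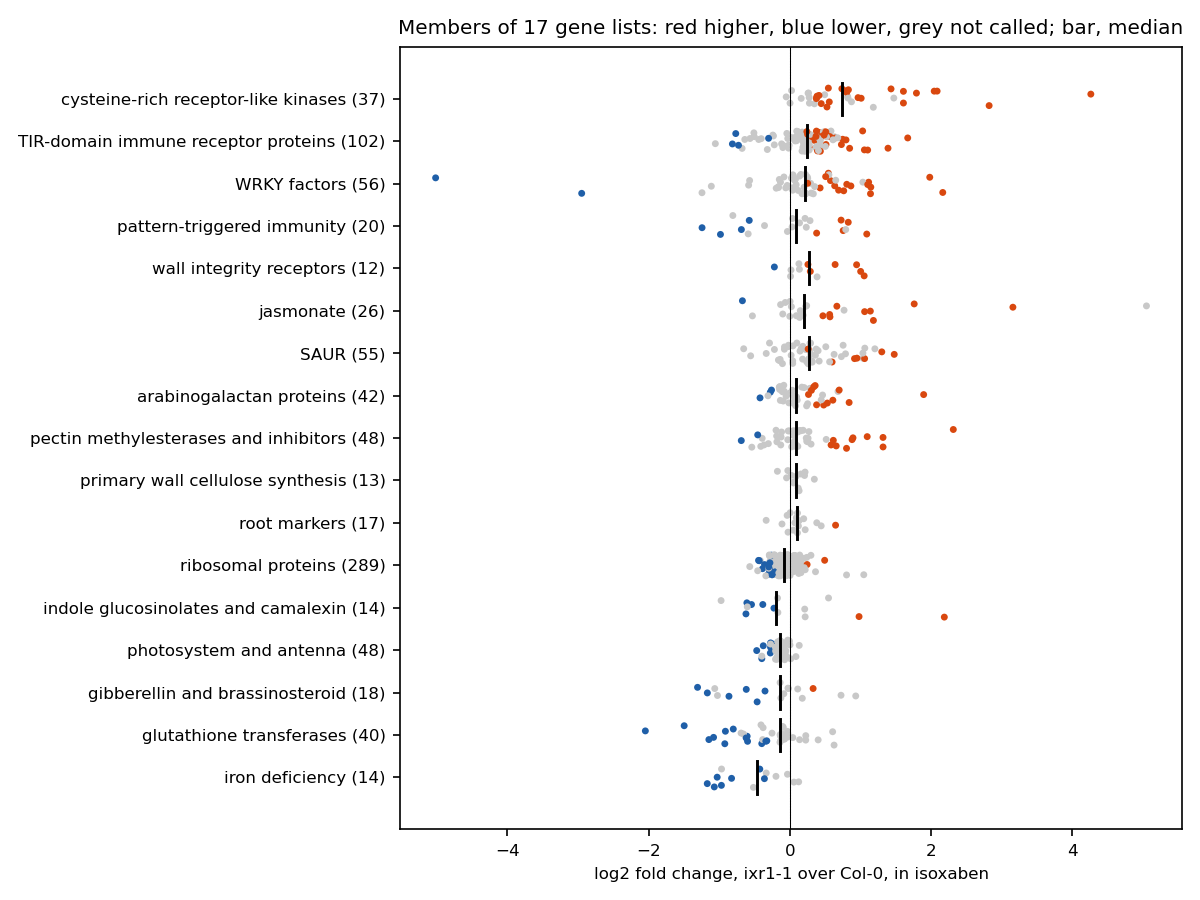
Log2 fold change of ixr1-1 over Col-0 in isoxaben for each tested member of 17 gene lists (rows, with the number tested; red, called higher; blue, called lower; grey, not called; bar, median). The CRK row is shifted to the right with a median of 0.74, and the iron deficiency row to the left with a median of -0.47.

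WRKY transcription factors, which bind the W-box and govern defence genes, had 16 of 56 tested members higher and 2 lower, beside 6.92% and 5.85% of all genes tested. Of the 16, 14 were higher in DMSO too, beside 1006 of all 1410 genes called higher in isoxaben. WRKY60 was at 25.7, 22.1 and 17.5 CPM in Col-0 isoxaben and 47.5, 48.4 and 47.8 CPM in ixr1-1 isoxaben (1.15 ± 0.10 SE, adjusted p = 2.88e-06). WRKY25 was at 26.8, 25.1 and 23.0 CPM against 40.03, 50.6 and 45.3 CPM (0.87 ± 0.10 SE, adjusted p = 1.48e-05). WRKY15 was at 27.7, 29.5 and 26.2 CPM against 41.9, 50.9 and 53.0 CPM (0.81 ± 0.11 SE, adjusted p = 2.26e-04). The 2 lower genes were WRKY38 and WRKY51. WRKY30 was higher by 2.17, a call lost without Col-0 isoxaben replicate 2 (0.052). The number higher was 8 without Col-0 isoxaben replicate 2, 8 without Col-0 isoxaben replicate 3, 8 without ixr1-1 isoxaben replicate 2 and 9 without ixr1-1 isoxaben replicate 3. The lower genes numbered 5 without Col-0 isoxaben replicate 3. The NAC factor NAC036 was at 6.18, 4.47 and 3.35 CPM against 19.4, 24.01 and 18.8 CPM (2.19 ± 0.19 SE, adjusted p = 5.46e-06).

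The list of pattern-triggered immunity, in which surface receptors detect molecules of microbes and of damage, divided: 5 of 20 were higher and 4 lower in the mutant, whereas in DMSO 13 of 20 were higher and none lower. Among all genes tested 6.92% were higher and 5.85% lower in isoxaben, and 9.79% and 7.42% in DMSO. The 4 lower genes were the danger peptide receptor PEPR2 and the peptide precursors PROPEP1, PROPEP3 and PROPEP4, at -0.98, -0.68, -1.24 and -0.57. PEPR2 and PROPEP3 kept the call without any 1 library. PROPEP1 was at 6.76, 5.85 and 7.60 CPM in Col-0 isoxaben and 2.35, 5.53 and 4.36 CPM in ixr1-1 isoxaben, and its call was lost without Col-0 DMSO replicate 1 (0.054), Col-0 DMSO replicate 3 (0.0504), Col-0 isoxaben replicate 1 (0.077), Col-0 isoxaben replicate 3 (0.15), ixr1-1 isoxaben replicate 1 (0.13) or ixr1-1 isoxaben replicate 3 (0.084). That of PROPEP4 was lost without Col-0 isoxaben replicate 2 (0.071), Col-0 isoxaben replicate 3 (0.11), ixr1-1 isoxaben replicate 1 (0.068), ixr1-1 isoxaben replicate 2 (0.063) or ixr1-1 isoxaben replicate 3 (0.058). The 5 higher genes were the flagellin receptor FLS2 (1.09), the elongation factor receptor EFR (0.73), their shared kinase BIK1 (0.83), the mitogen-activated kinase kinase MKK4 (0.38) and PROPEP5 (0.76). BIK1 was at 15.6, 14.9 and 14.9 CPM in Col-0 isoxaben and 25.1, 26.2 and 29.1 CPM in ixr1-1 isoxaben (0.83 ± 0.16 SE, adjusted p = 0.0049) and kept its call without any 1 library. The number higher fell to 1 without Col-0 isoxaben replicate 2, to 2 without Col-0 isoxaben replicate 3, to 3 without ixr1-1 isoxaben replicate 2 and to 2 without ixr1-1 isoxaben replicate 3. In the lower direction the count was 2 without Col-0 isoxaben replicate 3, without ixr1-1 isoxaben replicate 1 or without ixr1-1 isoxaben replicate 3.

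The stress ethylene response factors split in the same way, with ERF2 and ERF-1 higher and ERF6 and ERF13 lower among 10 tested. Beside them, 6.92% of all genes tested were higher and 5.85% lower. In DMSO 8 of the 10 were higher in the mutant, beside 9.79% of all genes tested. ERF2 was at 1.83, 1.55 and 0.976 CPM in Col-0 isoxaben and 4.35, 5.53 and 6.15 CPM in ixr1-1 isoxaben (1.91 ± 0.35 SE, adjusted p = 0.0026). Of the touch and calcium genes TCH3, a calmodulin-like protein, was higher at 249, 214 and 204 CPM against 370.5, 561 and 378 CPM (0.98 ± 0.16 SE, adjusted p = 0.0036), and CZF1 and AT1G76640 were lower, out of 12 tested. Without any 1 of 5 isoxaben libraries, all but Col-0 isoxaben replicate 3, the number lower was 1.

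Receptors of wall integrity had 6 of 12 tested members higher and 1 lower, beside 6.92% and 5.85% of all genes tested. The wall-associated kinase WAK2, which binds pectin, was at 22.02, 16.6 and 18.4 CPM in Col-0 isoxaben and 33.4, 40.7 and 38.7 CPM in ixr1-1 isoxaben (1.01 ± 0.13 SE, adjusted p = 2.58e-04). MCA2, a membrane protein of mechanosensitive calcium entry, was at 6.66, 8.08 and 6.76 CPM against 12.4, 15.7 and 13.7 CPM (0.95 ± 0.14 SE, adjusted p = 2.69e-04). Both kept their calls without any 1 library. The other higher members were WAK1 (0.64), AT4G08850 (1.05), HERK1 (0.26) and HERK2 (0.29), and the lower one was the kinase FEI1 (-0.22). Not all of these calls held with 1 library left out, and so fewer to test. The number higher was 3 without Col-0 isoxaben replicate 2, 2 without Col-0 isoxaben replicate 3, 2 without ixr1-1 isoxaben replicate 2 and 3 without ixr1-1 isoxaben replicate 3. FEI1 was not called without any 1 of Col-0 isoxaben replicates 2 and 3 or the 3 ixr1-1 isoxaben libraries. FER, the receptor FERONIA, was at 273, 251 and 246 CPM in Col-0 isoxaben and 267, 325 and 255 CPM in ixr1-1 isoxaben (0.14 ± 0.09 SE, adjusted p = 0.35). THE1, the receptor THESEUS1, was at 158, 154 and 148 CPM against 172, 173 and 157 CPM (0.13 ± 0.06 SE, adjusted p = 0.20).

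Hormone genes of defence were also unequal between the genotypes. Of 26 jasmonate genes 9 were higher and 1 lower, beside 6.92% and 5.85% of all genes tested. JAZ6, a repressor of jasmonate signalling that is itself induced by the hormone, was at 50.02, 56.2 and 45.5 CPM in Col-0 isoxaben and 71.6, 82.9 and 86.6 CPM in ixr1-1 isoxaben (0.67 ± 0.09 SE, adjusted p = 8.90e-05). CYP94C1, which inactivates the active hormone, was at 7.82, 5.39 and 5.51 CPM against 16.8, 21.5 and 23.5 CPM (1.76 ± 0.18 SE, adjusted p = 3.69e-05). VSP1, a vegetative storage protein used as a jasmonate marker, was at 1.64, 2.69 and 2.37 CPM against 5.80, 5.03 and 4.56 CPM (1.14 ± 0.19 SE, adjusted p = 7.00e-04). The low-level gene JAZ7 was higher by 3.16, and AOC2, an enzyme of jasmonate synthesis, was lower, at a log2 fold change of -0.67. The number higher was 5 without Col-0 isoxaben replicate 2, 5 without Col-0 isoxaben replicate 3, 4 without ixr1-1 isoxaben replicate 2 and 5 without ixr1-1 isoxaben replicate 3.

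Of 19 salicylate genes 4 were higher and 3 lower in the mutant, beside 6.92% and 5.85% of all genes tested. The lower genes were NPR3, GRX480 and PR1, the pathogenesis-related protein used as a salicylate marker, which had 45 counts over the 3 Col-0 isoxaben libraries and 3 over the 3 ixr1-1 isoxaben libraries, a ratio of 14.3 with a 95% exact counting interval of 4.60 to 72.1. PR1 was also lower in the mutant in DMSO (-3.01 ± 0.69 SE, adjusted p = 0.0051). Among the higher genes PBS3, an enzyme of salicylate synthesis, was at 0.579, 0.287 and 0.139 CPM in Col-0 isoxaben and 1.18, 1.06 and 1.85 CPM in ixr1-1 isoxaben (2.12 ± 0.49 SE, adjusted p = 0.0077), a call lost without ixr1-1 isoxaben replicate 3 (0.051). The number higher was 2 without Col-0 isoxaben replicate 2, 1 without Col-0 isoxaben replicate 3, 2 without ixr1-1 isoxaben replicate 1 and 2 without ixr1-1 isoxaben replicate 3.

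**Figure D4:**
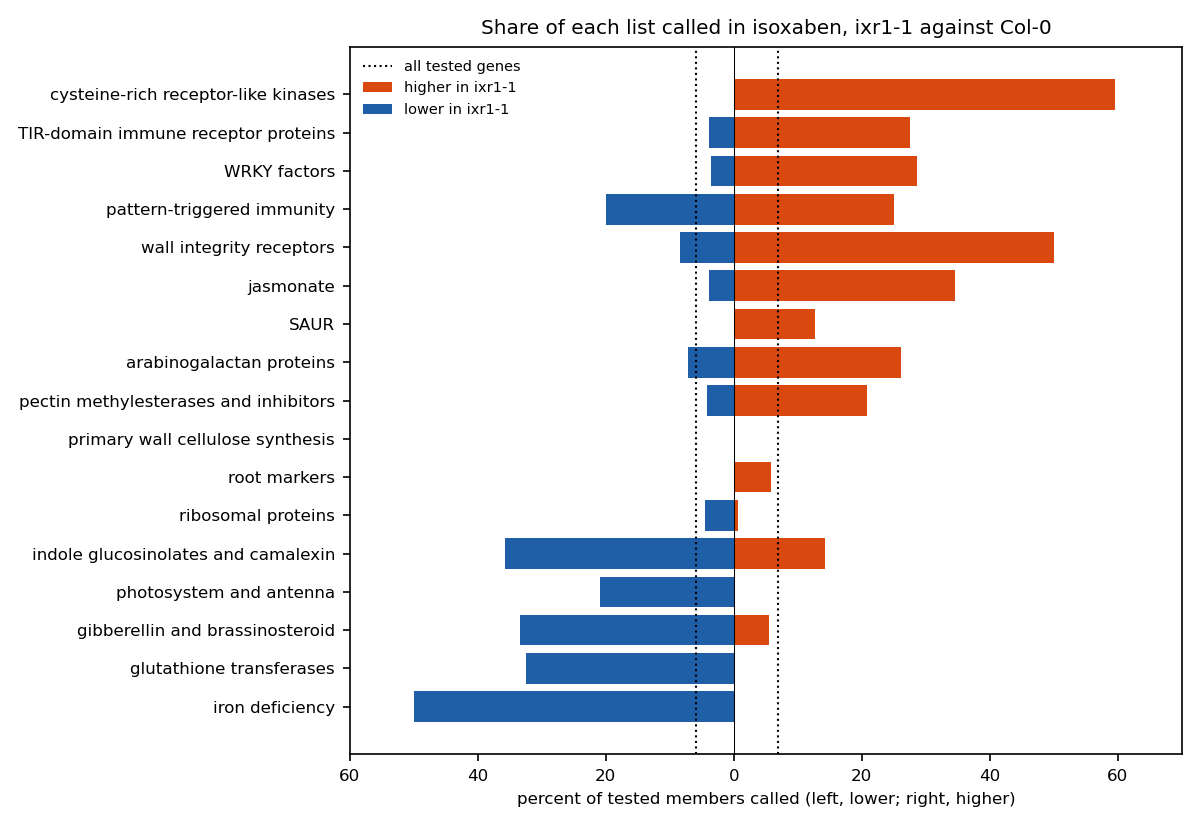
Percent of the tested members of 17 gene lists called higher (right, red) or lower (left, blue) in ixr1-1 than in Col-0 in isoxaben; dotted lines mark all tested genes at 6.92% higher and 5.85% lower. CRK genes (22 of 37 higher) lie far to the right of the line, and the 7 of 14 iron deficiency genes called lower far to the left.

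Transcripts of the maturing seed were far higher in the mutant. Seed storage proteins are the 12S cruciferins and 2S albumins that embryos lay down as reserves, and oleosins coat the oil bodies. Seedlings use these reserves after germination and do not normally make the transcripts. Of 16 such genes tested 13 were higher in ixr1-1 in isoxaben and none lower, beside 6.92% and 5.85% of all genes tested. The same 13 were higher in DMSO, beside 1006 of all 1410 genes called higher in isoxaben. The promoters of CRU3, SESA3 and CRA1, the 3 with the largest fitted differences, are shown because the RY element is known from seed storage promoters. Each match to its core CATGCA, on either strand, is in capitals, for 250 bases before the RefSeq gene start on TAIR10.1 in the direction of the gene.
CRU3 (chr4:14087306-14087555, plus strand): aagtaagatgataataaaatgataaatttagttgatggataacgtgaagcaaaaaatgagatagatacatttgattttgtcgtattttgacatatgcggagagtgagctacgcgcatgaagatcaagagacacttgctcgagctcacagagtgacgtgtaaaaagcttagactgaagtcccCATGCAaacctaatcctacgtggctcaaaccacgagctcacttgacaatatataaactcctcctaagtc
SESA3 (chr4:13611546-13611795, plus strand): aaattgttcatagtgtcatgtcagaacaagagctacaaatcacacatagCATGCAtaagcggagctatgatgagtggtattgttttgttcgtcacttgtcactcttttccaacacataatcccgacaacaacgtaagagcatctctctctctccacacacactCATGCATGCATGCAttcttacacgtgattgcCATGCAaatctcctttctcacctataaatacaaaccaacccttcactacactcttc
CRA1 (chr5:17758337-17758586, minus strand): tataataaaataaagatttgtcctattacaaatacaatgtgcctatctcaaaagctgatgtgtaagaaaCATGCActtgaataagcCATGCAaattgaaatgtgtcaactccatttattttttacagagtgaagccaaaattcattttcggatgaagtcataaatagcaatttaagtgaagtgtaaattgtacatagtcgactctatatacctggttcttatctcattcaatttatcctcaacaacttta
Of the 14 seed genes with such a window, 13 held a match (92.9%), beside 1214 of 13889 windows of all tested genes (8.74%). The element was picked because it is known from such promoters, so this share is no result about ixr1-1, and letter matches say nothing of binding.

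SESA3, a 2S albumin, had 0 counts in every Col-0 isoxaben library and stood at 12.9, 39.95 and 80.4 CPM in ixr1-1 isoxaben, at least 671-fold higher against a floor of 3 counts over the Col-0 group. CRU3, a cruciferin, was at 0 in Col-0 and at 28.4, 130.2 and 167 CPM in ixr1-1 isoxaben, at least 1633-fold higher by the same floor, but its adjusted p was 0.051. The oleosin OLEO1 was at 0 against 4.26, 13.8 and 25.4 CPM, at least 218-fold higher, and the cruciferin CRU2 at 0 against 7.06, 35.4 and 57.4 CPM, at least 505-fold. CRA1 had 1 count in the Col-0 libraries together and 32.9, 146 and 215 CPM in ixr1-1 isoxaben, a ratio of 5942 with a 95% exact counting interval of 1066 to 234722. These bounds and intervals cover counting error only. OLEO4, an oleosin with counts in every library, was at 0.483, 0.688 and 0.628 CPM against 3.71, 4.60 and 7.07 CPM (3.06 ± 0.34 SE, adjusted p = 2.81e-05), and the albumin SESA2 at 0.193, 0.115 and 0.697 CPM against 9.24, 18.7 and 29.5 CPM (5.84 ± 1.00 SE, adjusted p = 0.0075).

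The mutant libraries themselves were far apart in these genes. The summed level of the 16 genes was 2.03, 2.46 and 3.14 CPM in Col-0 isoxaben and 115, 446 and 672 CPM in ixr1-1 isoxaben. In DMSO it was 2.59 to 4.04 CPM in Col-0 and 229 to 739 CPM in ixr1-1. Replicate 1 was the lowest in both ixr1-1 groups. Without Col-0 isoxaben replicate 2 the number called was 8, and limma-voom called 4. The SESA3 call was lost without Col-0 DMSO replicate 1 (0.075), Col-0 isoxaben replicate 2 (0.059), Col-0 isoxaben replicate 3 (0.055) or ixr1-1 isoxaben replicate 2 (0.061). The CRU2 call was lost without Col-0 isoxaben replicate 2 (0.069), Col-0 isoxaben replicate 3 (0.065), ixr1-1 isoxaben replicate 2 (0.075) or ixr1-1 isoxaben replicate 3 (0.064). The OLEO1 call was lost without Col-0 isoxaben replicate 2 (0.0501) or ixr1-1 isoxaben replicate 2 (0.056), and the SESA4 call without Col-0 isoxaben replicate 2 (0.053) or Col-0 isoxaben replicate 3 (0.0503). The embryo genes PER1, a peroxiredoxin, and M17, a late embryogenesis protein, were higher too: PER1 had 1 count over the Col-0 isoxaben libraries and 78 over the mutant libraries, and M17 was at 0.290, 0.344 and 0.349 CPM against 1.36, 1.28 and 0.991 CPM (1.82 ± 0.43 SE, adjusted p = 0.0085).

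**Figure D5:**
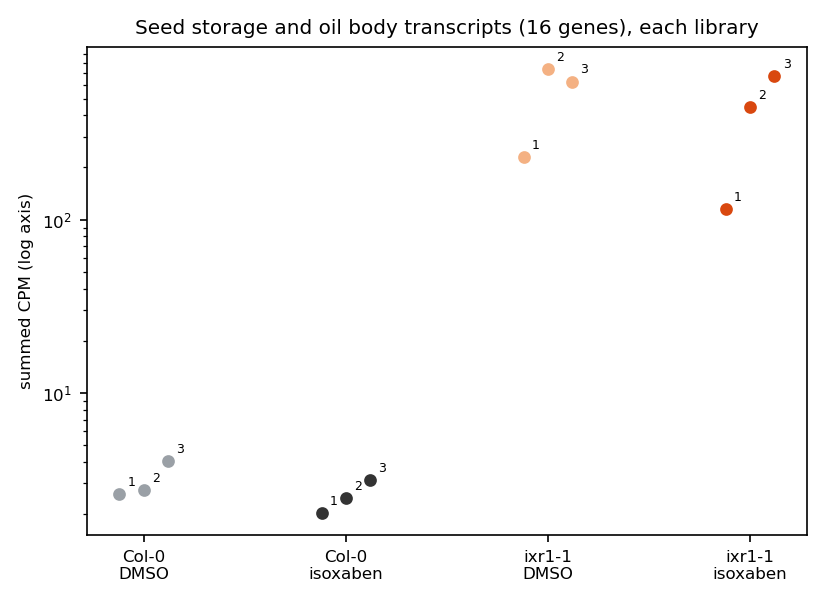
Summed CPM of the 16 seed storage and oil body genes in each library, on a log axis, by genotype and medium; numbers are replicates. All 6 Col-0 libraries lie between 2.03 and 4.04 CPM and all 6 ixr1-1 libraries between 115 and 739 CPM.

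The seed transcript level moved with genotype in every library, so the share of the genotype differences that goes with it could not be measured apart from genotype. With the log2 of the summed seed level as a covariate, edgeR called 0 genes in isoxaben (723 at an unadjusted p under 0.05) and the median standard error rose from 0.11 to 0.42. With the sum on a linear scale, an alternative chosen after seeing the data, 230 genes were higher and 80 lower. In that fit 6 CRK genes, 8 TIR genes, 4 jasmonate genes and 3 WRKY genes were called higher, and 3 iron deficiency genes and 2 glutathione transferases lower. None was called higher among the genes of pattern-triggered immunity (2 lower), the stress ethylene response factors (1 lower) and the salicylate genes (2 lower). No photosystem gene was called, and no gene of fat mobilisation. The interaction called 52 genes with the log2 covariate, against 64.

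Among genes lower in the mutant, QQS, an orphan gene that affects starch and is known from Arabidopsis thaliana alone, was at 4.83, 6.19 and 4.88 CPM in Col-0 isoxaben and 0.724, 0.283 and 0.330 CPM in ixr1-1 isoxaben (-3.63 ± 0.27 SE, adjusted p = 4.63e-07), and was lower in DMSO too (-3.03). AOX1B, a mitochondrial alternative oxidase, was at 8.98, 7.85 and 7.88 CPM against 2.45, 1.204 and 1.19 CPM (-2.39 ± 0.45 SE, adjusted p = 0.0072). AT4G23050, a kinase gene with a PAS domain, was at 40.6, 40.8 and 39.7 CPM against 12.5, 13.7 and 11.2 CPM (-1.70 ± 0.08 SE, adjusted p = 6.77e-10). It was named for its small p after the values were seen. The libraries of the 2 genotypes did not overlap for any of these 3, which the rule that named QQS and AOX1B required. The glucosinolate gene AOP3 stood the other way: at 0 counts in every Col-0 isoxaben library and 44 counts over the mutant libraries, at least 15.3-fold higher.

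Glutathione transferases, enzymes that couple glutathione to toxic compounds, had 13 of 40 tested members lower and none higher, against 5.85% lower among all genes. Of the 13, 9 were also lower in DMSO, close to the share over all genes, 845 of the 1192 called lower in isoxaben. GSTU25 was at 196, 183.4 and 188 CPM in Col-0 isoxaben and 68.9, 26.7 and 43.2 CPM in ixr1-1 isoxaben (-2.04 ± 0.38 SE, adjusted p = 0.01). GSTU24, its neighbour, was at 694, 675 and 643 CPM against 391, 235 and 285 CPM (-1.14 ± 0.21 SE, adjusted p = 0.0075). GSTF10 was at 1013, 989 and 1068 CPM against 721, 586 and 723 CPM (-0.60 ± 0.11 SE, adjusted p = 0.0016). GSTU19 differed by -0.40, a call lost without Col-0 isoxaben replicate 2 (0.071), ixr1-1 isoxaben replicate 2 (0.066) or ixr1-1 isoxaben replicate 3 (0.054). GSTU11 and GSTU12, also among the 13, were the 2 that were higher in DMSO. Those lower numbered 6 without Col-0 isoxaben replicate 3 and 6 without ixr1-1 isoxaben replicate 2. The number higher was 2 without ixr1-1 isoxaben replicate 2 and 1 without ixr1-1 DMSO replicate 2 or 3.

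Genes of the iron deficiency response were among those lower in the mutant. Plants short of iron raise the bHLH factors 38, 39 and 101, which act with FIT to turn on uptake genes, and small IRON MAN peptides that signal the shortage. Of 14 tested genes 7 were lower in ixr1-1 in isoxaben and none higher, and 6 of the 7 were lower in DMSO. Among all genes tested 5.85% were lower in isoxaben and 7.42% in DMSO, and 845 of the 1192 called lower in isoxaben were lower in DMSO. bHLH38 was at 75.3, 62.8 and 76.3 CPM in Col-0 isoxaben and 38.9, 30.5 and 35.9 CPM in ixr1-1 isoxaben (-1.03 ± 0.12 SE, adjusted p = 1.17e-04). BHLH101 was at 7.34, 6.08 and 7.81 CPM against 4.08, 3.68 and 3.11 CPM (-0.97 ± 0.18 SE, adjusted p = 0.0019). The IRON MAN genes AT1G47400 and AT1G47395 were at 23.1, 20.4 and 21.1 CPM against 10.5, 9.35 and 8.92 CPM (-1.17 ± 0.11 SE, adjusted p = 2.44e-06) and at 48.6, 42.0 and 48.7 CPM against 23.998, 22.8 and 19.7 CPM (-1.07 ± 0.14 SE, adjusted p = 2.73e-04). Their neighbour AT1G47405, in no list, was lower, at a log2 fold change of -2.55. The uptake genes themselves were not called: the transporter IRT1 was at 139, 109 and 149.6 CPM against 119, 119 and 108 CPM (-0.19 ± 0.13 SE, adjusted p = 0.39), and the reductase FRO2 at -0.33 (adjusted p = 0.29). FIT, listed as FRU, was at 0.13 (adjusted p = 0.29).

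Some transport genes for other nutrients were lower as well. NRT2:1, the high-affinity nitrate transporter, was at 6.08, 4.59 and 8.44 CPM in Col-0 isoxaben and 2.26, 2.27 and 2.84 CPM in ixr1-1 isoxaben (-1.35 ± 0.30 SE, adjusted p = 0.0097), a call lost without ixr1-1 isoxaben replicate 2 (0.052). The root anion channel SLAH1 was lower, at a log2 fold change of -1.92 and the channel SLAH3 higher by 0.52. The other 8 of 11 nitrate genes were not called. Among all genes tested 6.92% were higher and 5.85% lower. Of 9 phosphate starvation genes 2 were lower, MGDC, a galactolipid synthase, at -1.23 and the pyrophosphatase PS2 at -0.46. The PS2 call was lost without Col-0 isoxaben replicate 2 (0.17), ixr1-1 isoxaben replicate 2 (0.14) or ixr1-1 isoxaben replicate 3 (0.087). IPS1, a non-coding RNA of phosphate starvation that stood in no list, was at 4.44, 4.59 and 6.21 CPM against 1.36, 0.850 and 1.92 CPM (-1.87 ± 0.26 SE, adjusted p = 1.39e-04).

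Genes of the growth hormones gibberellin and brassinosteroid, not all of them synthesis enzymes, were compared next. Of 18 such genes 6 were lower and 1 higher, beside 5.85% lower among all genes. The 6 were GA20OX1, GA3OX1, DWF4, CPD, BR6OX2 and BAS1. Without ixr1-1 isoxaben replicate 3 the number lower was 3. The higher gene, BES1, was not called without Col-0 isoxaben replicate 1, Col-0 isoxaben replicate 3, ixr1-1 isoxaben replicate 2 or ixr1-1 isoxaben replicate 3. GA20OX1, an enzyme of gibberellin synthesis, was at 6.86, 4.41 and 5.23 CPM in Col-0 isoxaben and 2.81, 2.41 and 2.05 CPM in ixr1-1 isoxaben (-1.17 ± 0.24 SE, adjusted p = 0.0031). CPD, an enzyme of brassinosteroid synthesis, was at 249, 199 and 205 CPM against 130.4, 121 and 108 CPM (-0.86 ± 0.10 SE, adjusted p = 8.50e-05). BR6OX2, a later enzyme of that pathway, was at 53.5, 52.9 and 52.1 CPM against 37.9, 40.3 and 36.8 CPM (-0.46 ± 0.09 SE, adjusted p = 0.0019). GA2OX7, which inactivates gibberellin precursors and stood in no list, was lower too, at 9.37, 8.65 and 9.62 CPM against 2.54, 2.41 and 2.97 CPM (-1.79 ± 0.16 SE, adjusted p = 2.41e-06).

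The synthesis of indole glucosinolates, sulphur-rich defence compounds, had genes called in both directions. Of 14 tested genes 5 were lower and 2 higher, beside 5.85% and 6.92% of all genes tested. Those lower included CYP79B2, CYP79B3 and CYP83B1, which make the core structure. Those higher were CYP81F2, which modifies the indole ring, and PEN2, the enzyme that breaks the products down. CYP79B2 was at 166, 169.8 and 195 CPM in Col-0 isoxaben and 104, 125 and 116 CPM in ixr1-1 isoxaben (-0.62 ± 0.08 SE, adjusted p = 6.65e-05). CYP79B3 was lower, at a log2 fold change of -0.61 and that of CYP83B1 was -0.54. CYP81F2 was at 7.15, 3.50 and 3.35 CPM against 15.7, 27.2 and 17.4 CPM (2.19 ± 0.35 SE, adjusted p = 0.0041), with DMSO means of 4.06 and 32.1 CPM. PEN2 was higher by 0.98, and its call was lost without Col-0 isoxaben replicate 2 (0.068), Col-0 isoxaben replicate 3 (0.074), ixr1-1 isoxaben replicate 2 (0.075) or ixr1-1 isoxaben replicate 3 (0.051), which leaves 1 higher gene. Of 19 aliphatic glucosinolate genes 4 were lower, with differences between -0.47 and -0.25, and 1 higher, AOP3. The number lower was 2 without Col-0 isoxaben replicate 2, Col-0 isoxaben replicate 3 or ixr1-1 isoxaben replicate 2.

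The genes of cellulose synthesis were not called in either direction. None of 13 tested genes of primary wall cellulose synthesis was called with edgeR, DESeq2 or limma-voom, in isoxaben or, with edgeR, in DMSO. Among all genes tested 12.8% were called in isoxaben and 17.2% in DMSO, so few calls would fall among 13 genes at those shares. Of the 13, 2 had an unadjusted p under 0.05 in isoxaben. Scaling by library size alone called 2 of them higher, and leaving out ixr1-1 DMSO replicate 2 called 1. CESA3, listed as CEV1 (chromosome 5, 1530174 to 1535414), was at 607, 531 and 561 CPM in Col-0 isoxaben and 566, 711 and 531 CPM in ixr1-1 isoxaben (0.09 ± 0.10 SE, adjusted p = 0.63). Since the allele is a point mutation, its transcript level does not check the genotype labels, and a count table shows no base change. CESA1 was at 622, 547 and 564 CPM against 537, 632 and 509.5 CPM (-0.04 ± 0.09 SE, adjusted p = 0.80). CESA6 was at 495, 446 and 424 CPM against 497, 609 and 480.2 CPM (0.22 ± 0.09 SE, adjusted p = 0.13). The linker CSI1, which ties the complex to microtubules, was at 0.16 (adjusted p = 0.39), the endoglucanase GH9A1, known as KORRIGAN, at 0.13 (adjusted p = 0.35) and COB, the COBRA protein of oriented growth, at 0.06 (adjusted p = 0.76).

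Enzymes that remodel the other wall polymers differed gene by gene. Of 48 tested pectin methylesterases and inhibitors 10 were higher and 2 lower, beside 6.92% and 5.85% of all genes tested. ATPMEPCRB, a pectin methylesterase, was at 132, 98.2 and 84.5 CPM in Col-0 isoxaben and 231, 296 and 257 CPM in ixr1-1 isoxaben (1.32 ± 0.19 SE, adjusted p = 0.0025). The inhibitor PME1 was lower (-0.45 ± 0.08 SE, adjusted p = 0.0013). Without Col-0 isoxaben replicate 3 or ixr1-1 isoxaben replicate 2 the number lower was 1. Of 42 arabinogalactan proteins, glycoproteins of the cell surface, 11 were higher and 3 lower, and AGP5 was at 2.12, 1.09 and 1.05 CPM against 4.80, 5.24 and 5.02 CPM (1.90 ± 0.26 SE, adjusted p = 1.06e-04). The number of these higher was 6 without Col-0 isoxaben replicate 3, and the number lower was 0 without Col-0 isoxaben replicate 2 and 1 without Col-0 isoxaben replicate 1, ixr1-1 isoxaben replicate 2 or ixr1-1 isoxaben replicate 3. Of 29 xyloglucan endotransglucosylases, which cut and rejoin xyloglucan, 3 were higher and 3 lower, beside 6.92% and 5.85% of all genes tested. The lower genes numbered 5 without Col-0 isoxaben replicate 1 and 1 without Col-0 isoxaben replicate 2 or ixr1-1 isoxaben replicate 3. XTH19 was at 115, 98.9 and 70.6 CPM against 277, 429 and 260.3 CPM (1.77 ± 0.30 SE, adjusted p = 0.0071) and XTR6 at 66.6, 67.7 and 59.8 CPM against 111, 130.1 and 108 CPM (0.85 ± 0.08 SE, adjusted p = 3.79e-06), while XTH20 was lower, at 20.1, 16.9 and 21.3 CPM against 9.15, 13.8 and 10.4 CPM (-0.79 ± 0.13 SE, adjusted p = 4.91e-04). Expansins, which loosen walls, had 2 of 25 higher, with EXPA1 at 0.39, and 5 lower, among them EXLA3, against the same shares of all genes. The number higher was 1 without any 1 of the DMSO libraries other than Col-0 DMSO replicates 2 and 3, or without Col-0 isoxaben replicate 3 or ixr1-1 isoxaben replicate 1. In the lower direction the count was 3 without Col-0 isoxaben replicate 1 or ixr1-1 isoxaben replicate 2 and 2 without Col-0 isoxaben replicate 2 or ixr1-1 isoxaben replicate 3.

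Markers of the seedling's main tissues were compared to see whether the libraries differed in makeup. Of 17 root markers 1 was called, SHV2, beside 12.8% of all genes tested. The summed root marker level was 494 to 546 CPM in Col-0 isoxaben and 487 to 554 CPM in ixr1-1 isoxaben. Of 9 shoot and chloroplast markers 4 were lower and none higher, beside 5.85% and 6.92% of all genes tested. Their summed level was 27217 to 30938 CPM in Col-0 isoxaben and 22707 to 24572 CPM in ixr1-1 isoxaben, without overlap. Those lower numbered 1 or 2 without any 1 of Col-0 isoxaben replicates 2 and 3 and the 3 ixr1-1 isoxaben libraries. In the wider list of photosystem, antenna and RuBisCO genes 10 of 48 were lower and none higher, against the same shares of all genes. Their differences lay between -0.47 and -0.22. CAB1, a chlorophyll-binding antenna protein, was at 5864, 6457 and 5601 CPM against 4628, 4492 and 4508 CPM (-0.40 ± 0.08 SE, adjusted p = 0.0024). RBCS1A, a RuBisCO small subunit, was at -0.37 (adjusted p = 0.0061). The number lower was 3 without Col-0 isoxaben replicate 2, 6 without Col-0 isoxaben replicate 3, 3 without ixr1-1 isoxaben replicate 2 and 5 without ixr1-1 isoxaben replicate 3, and it was 4, with 1 higher, when libraries were scaled by size alone. The part of tissue makeup in the gene differences above was not tested. None of 10 clock genes, 13 cell cycle genes, 16 secondary wall genes or 15 tubulins was called with edgeR, DESeq2 or limma-voom, and 2, 0, 0 and 4 of them, respectively, had an unadjusted p under 0.05. Without Col-0 isoxaben replicate 3, 1 tubulin was called higher, and without ixr1-1 isoxaben replicate 2, 1 was called lower.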

How the data were processed

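RNA of seedlings was sequenced in 12 libraries made with a stranded mRNA kit from 500 ng, per the labels' protocols. Per the submitters' processing notes the tools were bcl2fastq, FastQC 11.1, STAR 2.4.1 and featureCounts 1.4.6. The deposited values are raw read counts per gene; no source used here names the genome build or the strand setting of the counting. On TAIR10.1, 97.7% of the 120956 gaps between the exons listed in the files ran from GT to AG, so that assembly was used for promoters and RefSeq for names. The counts were analysed here with edgeR 4.0.16 in R 4.3.3: filterByExpr, TMM scaling, the quasi-likelihood test in 1 model over 12 libraries, and Benjamini-Hochberg adjustment over all 20379 genes tested, at 0.05. Standard errors were taken from the fold change and its F value. The script was tested on simulated counts. Totals ran from 8521491 to 20658035 counts, and intervals and floors cover counting error only. DESeq2 1.42.0 and limma 3.58.1 (voom) were alternatives, with other scalings, filters, blocks, a seed transcript covariate and libraries left out. The members and lists were chosen with earlier results of these data known. Genes were named by rule: CESA3; the 12 largest called differences per direction among genes averaging log2 CPM 1 or more whose libraries did not overlap; up to 4 called members of each of 46 lists, and up to 10 interaction genes. Other named genes, among them all interaction genes beyond those 10, were chosen after their values were seen. The replicate number was not used as a block.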

Additional observations from a re-analysis of the deposited data

Results flagged for a closer look

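The genotype difference in isoxaben and that in DMSO differed by edgeR's interaction test for 36 genes that were also called in isoxaben. Values are the log2 difference in isoxaben minus that in DMSO, so a negative value means that ixr1-1 stood lower relative to Col-0 with the drug than without it. For 13 genes the interaction kept an adjusted p under 0.05 without any 1 library: AT1G07135 -2.34, AT1G13480 -2.69, AT5G18470 -2.42, AT5G28610 -3.12, PROPEP3 -3.20, AT3G28580 -1.82, EXLA3 -2.51, CZF1 -1.02, ERF13 -3.22, ERF6 -1.93, CYP706A2 -3.52, AT1G14040 -1.08 and AT1G05650 1.11. For the other genes it was lost without at least 1 library. Among these the value was negative for PUP14 -0.63, GSTU12 -2.71, GSTU11 -4.07, AT2G32020 -1.69, PEPR2 -1.19, NPR3 -0.95, GRX480 -2.59, AT1G76640 -2.31, AT2G18210 -1.96, AT5G60350 -5.38, DLAH -1.47, PLL1 -0.72 and AT4G34150 -0.58. The large values of GSTU11 and AT5G60350 rest on few counts in Col-0 DMSO, at means of 0.115 and 0.0696 CPM. The value was positive for AT4G13620 0.91, AT4G25250 1.85, GRI 1.44, AGP4 0.69, AGP14 0.66, HB-3 0.79, AT4G31320 1.02, ARP1 1.07, AT4G30170 0.60 and AT1G08590 0.65. The adjusted p over all genes ranged from 3.66e-05 for AT5G18470 to 0.0498 for AT4G30170.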

How the results depend on the processing

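The counts under the main settings were 1410 genes higher and 1192 lower in isoxaben, 3509 called in DMSO, 1851 in both and 64 by interaction. Scaling by library size alone gave 2280 higher and 721 lower. With the log2 summed seed transcript level as covariate no genotype call remained in isoxaben or DMSO or in both (0 higher, 0 lower, 0 in DMSO, 0 in both, 0 list members, 0 named genes with edgeR; 723 genes at an unadjusted p under 0.05 in isoxaben); the covariate separates the genotypes without overlap, so they cannot be told apart. With the covariate on a linear scale, chosen after seeing the data, there were 230 higher, 80 lower, 314 in DMSO, 165 in both, 73 list members (284 in the main fit) and 72 named genes (154 in the main fit). The interaction gave 103 genes with DESeq2, 99 with the replicate number as a block and 180 with the flask as a block. With a fold of at least 2 there were 332 higher, 103 lower, 620 in DMSO and 309 in both. Leaving out 1 library gave 810 to 1488 higher, 671 to 1268 lower, 2281 to 3798 in DMSO, 22 to 113 by interaction, 1185 to 1912 in both, 181 to 298 list members and 126 to 155 named genes. Of 1408 results for single genes under the scaling, filter and test alternatives, 1362 kept direction and call, 41 lost the call, 5 gained one and 0 changed sign. The 36 genes that changed sign did so with the log2 seed covariate, none with an adjusted p under 0.05 there, and the cause was not tested. In that fit the log2 fold changes were WRKY38 2.05, WRKY51 1.63, WRKY15 -0.16, WRKY53 -0.99, FLS2 -0.037, EFR -0.26, BIK1 -0.027, MKK4 -0.047, AT4G08850 -0.25, ERF-1 -0.21, SESA2 -0.035, SESA4 -1.30, OLEO3 -4.04, AT3G01570 -3.09, PAP85 -0.18, AT1G47405 0.44, AOX1B 1.99, GSTU25 0.94. They were GSTU24 0.69, GSTF2 0.21, GSTU19 0.60, SLAH1 0.39, bHLH39 0.20, AT2G30766 0.34, PS2 0.28, GA20OX1 0.93, CPD 0.17, PR1 1.90, CYP79F1 0.035, PEN2 -0.37, AOC2 0.061, LOX3 -0.81, JAZ10 -0.76, XTH11 0.79, PME1 0.26 and HERK2 -0.013. The replicate number was shared by the groups but the libraries with the same number correlated at -0.049, -0.04 and 0.12 between Col-0 and ixr1-1 isoxaben, so the block was not used; with it 1853 genes were higher and 1719 lower. Between DMSO and isoxaben, which divided flasks link, they correlated at 0.03, 0.14 and 0.21 in Col-0 and at 0.23, 0.31 and 0.03 in ixr1-1. Libraries of different number correlated at -0.16 to 0.03 in Col-0 and at -0.31 to 0.11 in ixr1-1, mostly below those of the same number. Not every same-number pair passed 0.1 and no label ties a number to a flask, so the flask block was not used for the interaction. The 64 interaction genes and the interactions that did not pass are therefore those of an unpaired fit.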

Other observations

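Among all genes tested, 6.92% were higher and 5.85% lower in isoxaben. Of 12 genes that break down stored fat after germination, 4 were lower in the mutant in isoxaben (ACX1, ACX2, CSY2 and PMDH2, enzymes of peroxisomal fatty acid oxidation), at -0.48 to -0.29. None was higher and 8 were not called, and 6 of the 12 were lower in DMSO. The number lower in isoxaben was 2 without Col-0 isoxaben replicate 1, Col-0 isoxaben replicate 3 or ixr1-1 isoxaben replicate 2, 1 without ixr1-1 isoxaben replicate 3 and 0 with the seed covariate on a linear scale. Of 55 SAUR genes, small auxin-responsive proteins, 7 were higher and none lower in isoxaben; the number was 4 without Col-0 isoxaben replicate 2, Col-0 isoxaben replicate 3, ixr1-1 isoxaben replicate 1 or ixr1-1 isoxaben replicate 2. Of 289 ribosomal protein genes 2 were higher and 13 lower, and scaling by library size alone gave 5 and 5. The number higher was 0 without Col-0 isoxaben replicate 2 or ixr1-1 isoxaben replicate 3, and 1 without Col-0 DMSO replicate 1, Col-0 isoxaben replicate 3 or ixr1-1 isoxaben replicate 1. The number lower was 4 without Col-0 isoxaben replicate 2, 6 without Col-0 isoxaben replicate 3 and 4 without ixr1-1 isoxaben replicate 2. Among 9 hypoxia genes 1 was lower, AT4G33070, a pyruvate decarboxylase, at -1.46. There were 2 lower without Col-0 DMSO replicate 2 or ixr1-1 DMSO replicate 3, and also 2 with DESeq2 or its size factors.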
